A study of Mus musculus with 2 samples.

Results

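Cytokines and chemokines are secreted or membrane-bound signals through which cells direct growth, survival, migration and inflammation. Chemokines act through G protein-coupled receptors, most interleukins and colony-stimulating factors through receptors that signal by JAK kinases and STAT factors, and the TNF and IL-1 families largely through adaptors that activate NF-kappa B. Fibroblasts and other stromal cells are known sources of chemokines and colony-stimulating factors, and mouse embryonic stem (ES) cells are known for their dependence on one cytokine of the IL-6 family, leukemia inhibitory factor (LIF). The genes described here are those whose symbol on the array begins as a cytokine, chemokine, TNF family or related receptor name does (Il, Ccl, Ccr, Cxcl, Cxcr, Cx3c, Xcl1, Ackr, Tnf, Lif, Osm, Csf or Crlf, with a digit where the family is numbered). The rule found 88 genes of 11484 with a name, read by 94 of 13989 probes. It also takes in 5 genes that are no ligand or receptor, 4 of them Tnfaip genes and 1 the enzyme gene Il4i1.

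Expression was measured on a 1-colour mouse whole-genome oligonucleotide array in 2 samples, both of embryonic origin and of the strain C57/ICR. One was of stem cells obtained with a small molecule that the labels do not name, at passage 5 in ES medium, called generated stem cells here. The other was of the parental cells at passage 1 in medium with fetal bovine serum (FBS), so the treatment, the passage and the medium cannot be told apart. The design text speaks of 3 replicates a sample, but a single column for each was analysed, so no value has a replicate error, no test between the groups was possible and every difference describes these 2 samples only. Values are the deposited normalised intensities on a linear scale, averaged over the probes of a gene on the log2 scale. Lif and Lifr were not analysed here, nor were Il6st, Il6, Ccl2, Cxcr4, Csf1r and Tnfrsf1a.

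Median intensity was 305 in generated stem cells and 304 in parental cells. The 25th percentile of each column, 93.4 in generated stem cells and 93.8 in parental cells, served as a floor, and a gene whose values were both under it is termed dim and has no fold. With 1 of both values under the floor, only a bound is given for the fold ("at least"), taken between the brighter value and the floor of the other column. Differences are log2 values of generated stem cells over parental cells, and a gene was counted as higher or lower at 2-fold or more. Probes of the same gene differed with an SD of 1.05 on the log2 scale around their gene (612 genes with 2 probes above the floor), which is 2.07-fold, so a difference near 2-fold in a gene with 1 probe is within probe error. Of the 88 genes 82 had 1 probe. Cell markers were set against the labels. Of 9 measured pluripotent cell markers 8 were higher in generated stem cells (88.9%, where 22.1% of all genes above the floor were). The exception was Nanog, just above the floor in generated stem cells only. Of the mesenchymal markers 5 of 5 measured were lower (100%, where 22.6% of all genes were).

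Cytokine and receptor genes were seldom higher in generated stem cells, and those that differed most were lower. Of the 88 genes 65 lay above the floor in at least 1 sample. Among these 65, 6 were higher (9.23%), where 22.1% of all 9766 genes above the floor were, and 15 were lower (23.1%), where 22.6% of all genes were. The share of lower genes was thus near that of the whole array, and the share of higher genes was smaller. Of the 15 lower genes 9 were under the floor in generated stem cells, and of the 6 higher genes 2 were under it in parental cells. The other 44 (67.7%) differed by less than 2-fold, against 55.3% of all genes. At 4-fold or more, 0 of the 65 genes were higher (7.52% of all genes) and 11 were lower (10.3% of all genes). These counts use the measured values. With each value under the floor raised to it, 5 of the 65 genes were higher by 2-fold (20.5% of all genes) and 13 were lower (20.8% of all genes). The lower members were thus again near the share of the whole array. By 4-fold, 0 were then higher and 9 lower, and the share over all genes was not taken for that count. Among members with both values above the floor the largest positive log2 difference was 1.45, for Tnfrsf21, and the largest negative one was -6.90, for Cxcl12. The median log2 difference was -0.07, measured or so bounded, against 0.12 over all genes above the floor. In the plot of generated stem cells against parental cells the 11 members lower by 4-fold or more spread far below the 2-fold line. The other lower members and the higher ones stayed closer to the 2-fold lines.

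**Figure D1:**
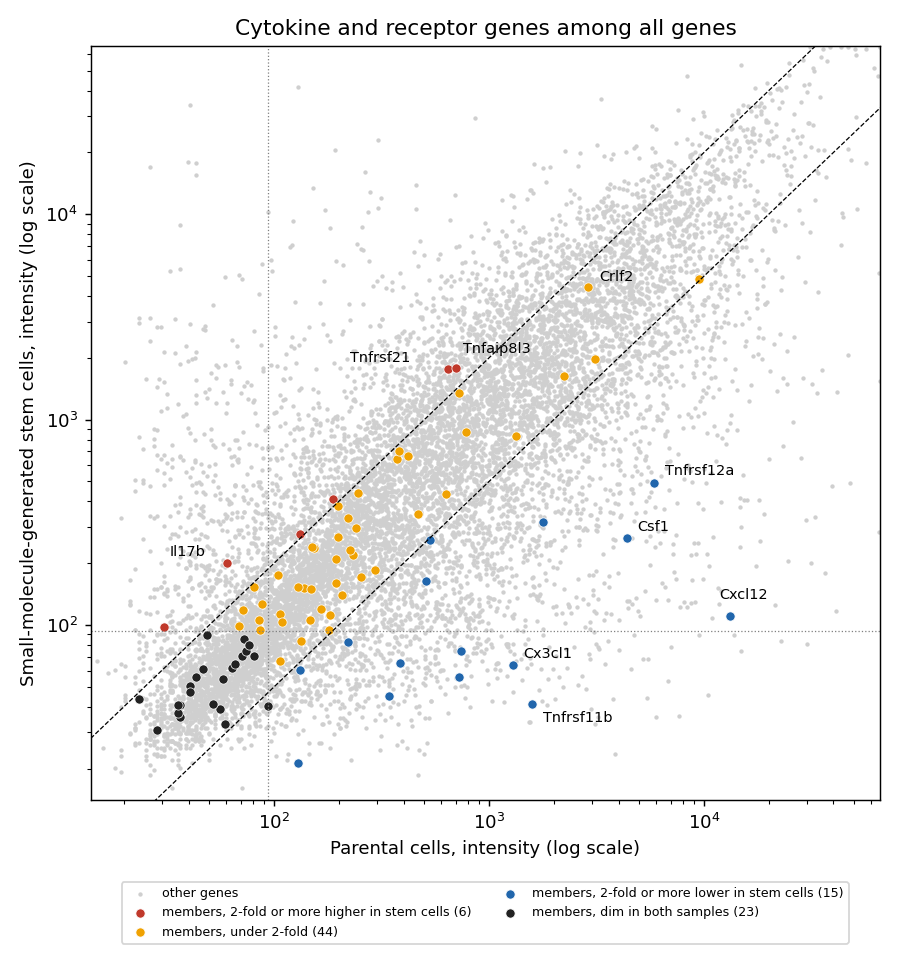
Intensity of each gene in generated stem cells (vertical axis) against parental cells (horizontal axis), both on log scales, with the 88 cytokine and receptor genes coloured by class over all other genes in grey. Dashed lines mark 2-fold and dotted lines the floors (93.4 and 93.8). By measured values 11 of the 15 lower members lie at 4-fold or more, the farthest being Cxcl12 at 111 in generated stem cells and 13234 in parental cells. The other lower members and the 6 higher ones lie nearer to the 2-fold lines.

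Many of these genes were faint. Of the 88 genes 23 (26.1%) were dim in both samples, against 14.96% of all genes, and 11 (12.5%) exceeded the 75th percentile of a column in at least 1 sample, against 34.2% of all genes. Brightness depends on the probe as well as on the transcript, so these shares do not rank the genes by abundance. With genes classed by the mean of both samples, which treats both directions alike, the share of lower members was close to that of all genes in each class, with 10 of 45 up to the median (22.2%, against 22.02% of all genes), 4 of 15 from there to the 75th percentile (26.7%, against 25.05%) and 1 of 5 above it (20%, against 20.8%). The share of higher members was smaller than that of all genes in each class, with 4 of 45 (8.89%, against 19.2%), 2 of 15 (13.3%, against 24.6%) and 0 of 5 (against 23.0%), though the upper classes held few members. Classing by the brighter sample gave other shares of lower members. There 3 of 35 were lower from the floor to the median (8.57%, against 14.3% of all genes). From the median to the 75th percentile 7 of 19 were (36.8%, against 25.06%), and above it 5 of 11 were (45.5%, against 25.975%). The closeness to all genes thus depended on the classing, while the share of higher members was smaller under both. In bulk RNA, fewer cells of a type and less RNA per cell cannot be told apart.

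**Figure D2:**
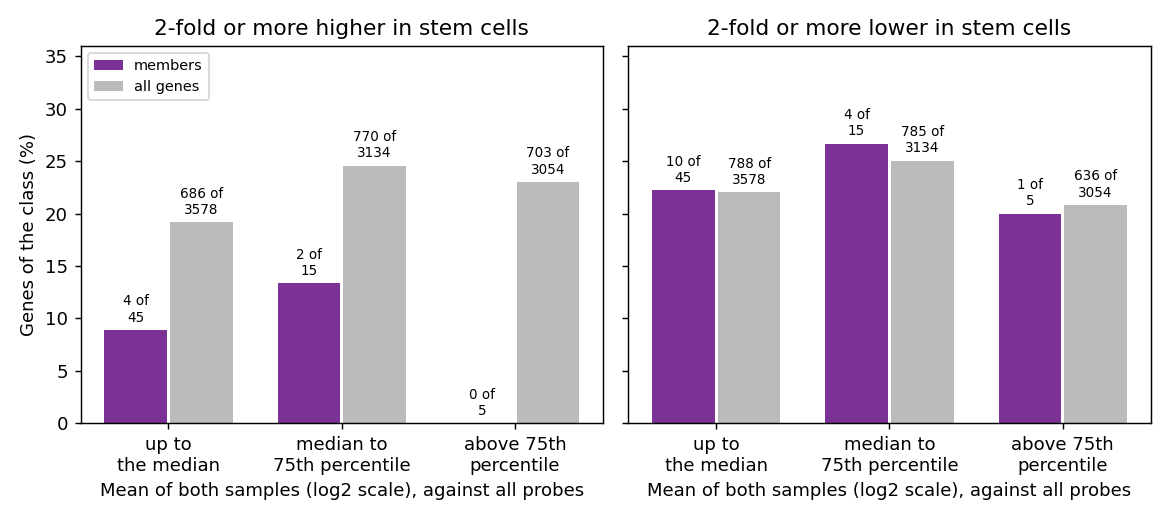
Share of genes 2-fold or more higher (left) and lower (right) in generated stem cells, in percent, by the mean of both samples on the log2 scale, for the cytokine and receptor genes (purple) and all genes (grey) above the floor in at least 1 sample, with counts above the bars. The bars of lower genes are of similar height, and those of higher genes are shorter for the members, with 4 of 45, 2 of 15 and 0 of 5.

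The chemokine ligands, which attract cells along gradients, held the largest difference. Of 12 measured ligand genes 8 were above the floor, 4 of them lower (50%, where 22.6% of all genes were), none higher. Cxcl12, whose product keeps CXCR4-bearing stem and progenitor cells in place in many tissues, had an intensity of 111 in generated stem cells, against 13234 in parental cells, and was 119-fold lower. Cx3cl1 encodes fractalkine, a chemokine tethered to the membrane. It was under the floor at 63.8 in generated stem cells, against 1289 in parental cells, at least 13.8-fold lower. Cxcl14, a chemokine of epithelia and stroma, had 318 in generated stem cells and 1781 in parental cells, a 5.60-fold difference. Its probes differed by 2.50 in their log2 differences. The first read 103 in generated stem cells and 1376 in parental cells (log2 -3.74), the second 979.7 in generated stem cells and 2305 in parental cells (log2 -1.23). Both probes were lower, so the direction held in each while the size did not. Cxcl10, the interferon-induced ligand of CXCR3, was at 21.2 in generated stem cells and 129 in parental cells. Since the first value is under the floor and the second little above it, the bound is only 1.38-fold.

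The remaining chemokine ligands showed no such difference. Cxcl16, a transmembrane ligand of CXCR6, had 666 in generated stem cells and 421 in parental cells (1.58-fold higher). Cxcl9, another interferon-induced ligand of CXCR3, had 238 in generated stem cells and 154 in parental cells (1.55-fold higher). Ccl11, the eosinophil attractant eotaxin, had 141 in generated stem cells and 206 in parental cells. Cxcl17 was at 94.7 in generated stem cells and 86.4 in parental cells. Ccl22, Ccl25, Cxcl15 and Xcl1 were dim, Ccl25 with a parental value of 93.8, at the floor itself.

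Among chemokine receptors 4 of the 7 measured genes were above the floor. None of them was higher or lower by 2-fold, where 44.7% of all genes above the floor were. Ackr1, an atypical receptor that binds chemokines without signalling through G proteins, had 644 in generated stem cells and 372 in parental cells (1.73-fold higher). Ccr9, the receptor of CCL25 on gut-homing lymphocytes, had 440.1 in generated stem cells and 244 in parental cells (1.80-fold higher). Cxcr1, a receptor of neutrophils, stood at 239.8 in generated stem cells and 150.3 in parental cells (log2 0.67), and Cxcr5, the B cell follicle receptor, at 1974 in generated stem cells and 3123 in parental cells (1.58-fold lower). Ackr3, the scavenging receptor of CXCL12, was dim at 32.8 in generated stem cells and 59 in parental cells, as were Ackr2 and Ccr1l1. Beside the 119-fold difference of its ligand, the one measured receptor gene for CXCL12 thus gave no readable level in either sample.

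**Figure D3:**
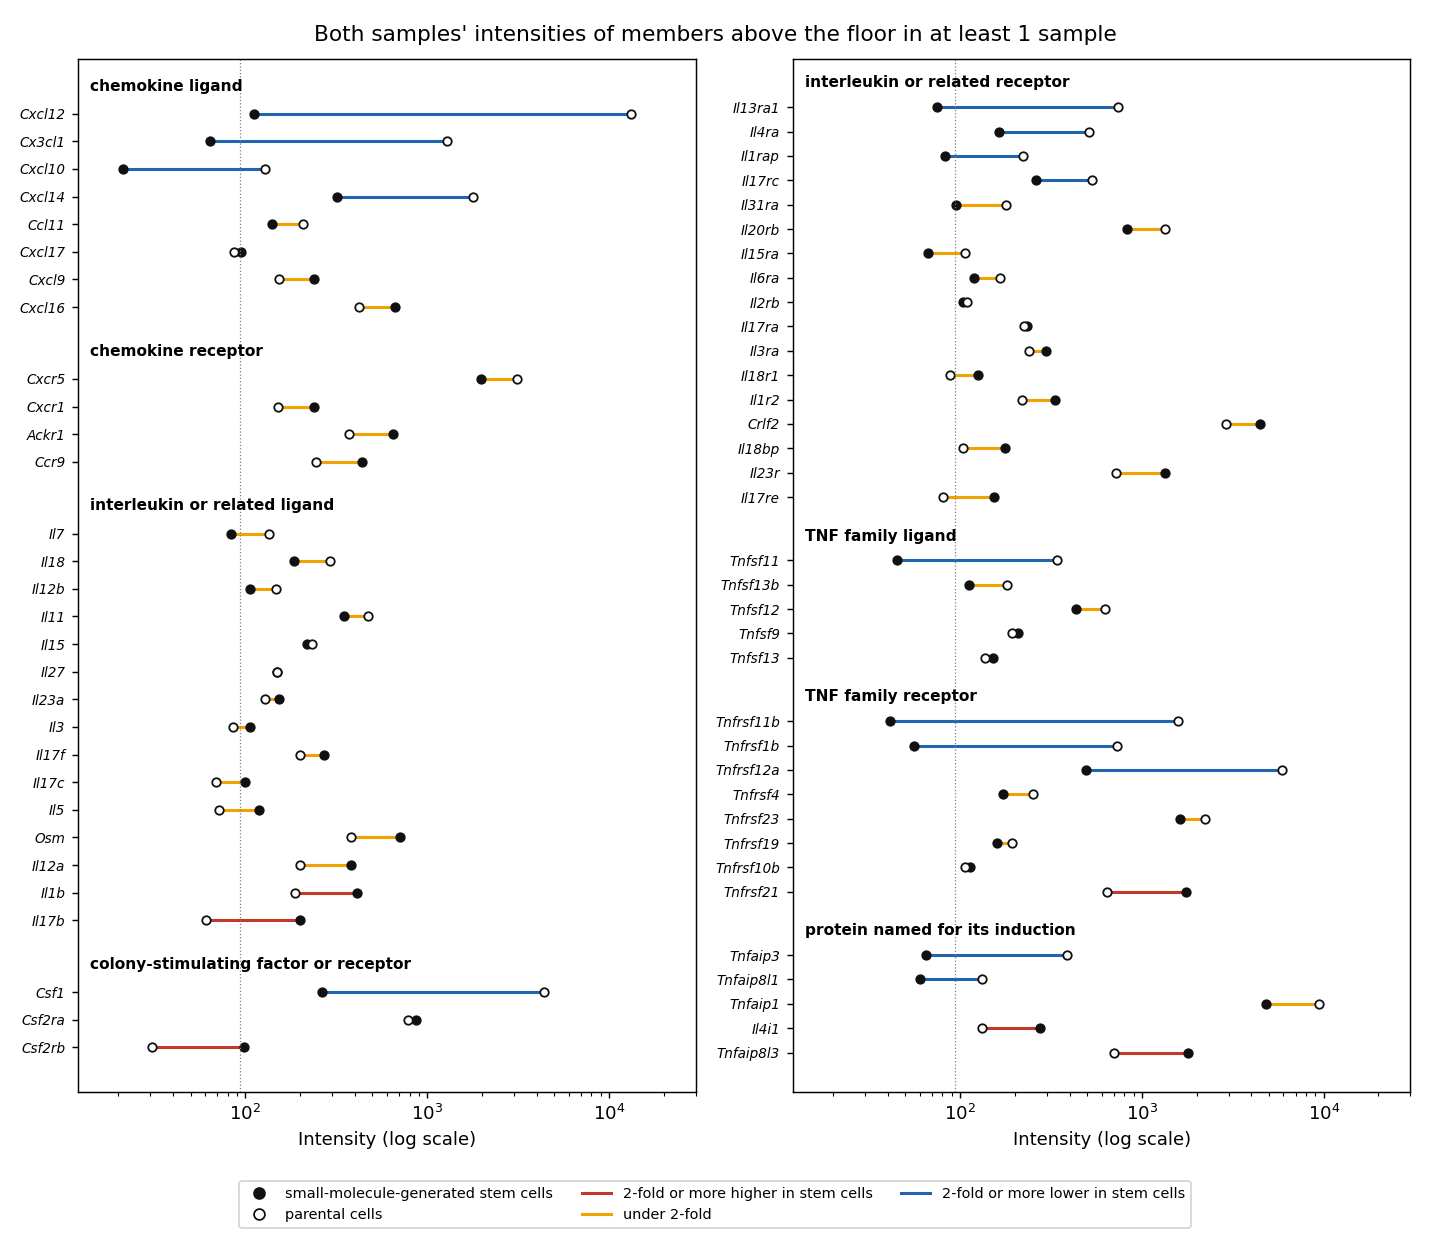
Intensities of the 65 members above the floor in at least 1 sample, on a log axis and grouped by role, in generated stem cells (filled points) and parental cells (open points). Line colours give the class, and the dotted line is the floor of 93.4. The long blue lines of Cxcl12, Cx3cl1, Csf1, Tnfrsf11b and Tnfrsf12a stand beside many short lines among the interleukins. There 13 of 15 ligands differ by less than 2-fold, against 55.3% of all genes above the floor.

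Colony-stimulating factors drive the production of myeloid cells. Csf1, the main growth factor of macrophages and a product of stromal cells, had an intensity of 265 in generated stem cells, against 4376 in parental cells, and was 16.5-fold lower. Il34 encodes the other ligand of the CSF1 receptor, and it was dim at 47 in generated stem cells and 40.6 in parental cells. Csf2ra, a receptor chain for GM-CSF, had 867 in generated stem cells and 784 in parental cells. Its signalling partner Csf2rb counted as higher, but with 97.7 in generated stem cells and 30.8 in parental cells it barely passed the floor, and its bound was 1.04-fold. Csf3, which encodes G-CSF, was dim.

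Markers of macrophages and other leukocytes differed in the same samples. Of 11 measured genes of that marker list 6 were lower in generated stem cells (54.5%, where 22.6% of all genes were) and 1 was higher. None was dim, and no marker was at 0. C1qa, a complement component made by macrophages, had 35.7 in generated stem cells, under the floor, and 3198 in parental cells, at least 34.2-fold lower. Fcer1g, a subunit of Fc receptors, had 206 in generated stem cells and 1894 in parental cells. The summed intensity of the list was 13924 in generated stem cells, of which Laptm5 alone gave 12204, and 9689 in parental cells, of which Laptm5 gave 1287. Of 5 measured lymphocyte markers 4 were above the floor, with 2 higher (50%, where 22.1% of all genes were) and none lower. The higher ones were Cd79b (891.5 in generated stem cells, 184 in parental cells) and Cd3e (1022 in generated stem cells, 259 in parental cells). The lymphocyte list summed to 2565 in generated stem cells and 901 in parental cells. Of 4 measured endothelial markers 3 were above the floor, with 1 higher (33.3%, where 22.1% of all genes were) and none lower. The higher one was Vwf (661 in generated stem cells, 36.7 in parental cells, under the floor, at least 7.05-fold). Cdh5 and Kdr differed by less than 2-fold, in opposite directions, and Pecam1 was dim. The list summed to 1024 in generated stem cells and 324 in parental cells. The mesenchymal markers summed to 693 in generated stem cells and 128545 in parental cells. The part of these cell types in the differences of the cytokine genes was not tested.

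The TNF superfamily pairs trimeric ligands with receptors that control survival, death and bone and immune development. Of 11 measured receptor genes 8 were above the floor, with 3 lower (37.5%, where 22.6% of all genes were) and 1 higher (12.5%, where 22.1% were). Of 8 measured ligand genes 5 were above the floor, with 1 lower (20%, near the 22.6% of all genes) and none higher. Tnfrsf11b encodes osteoprotegerin, the soluble decoy for RANKL. Its intensity was 41.3 in generated stem cells, under the floor, against 1581 in parental cells, at least 16.9-fold lower. Its ligand gene Tnfsf11, which encodes RANKL, was at 44.9 in generated stem cells and 343 in parental cells, at least 3.67-fold lower, so both genes of this decoy and ligand pair were brighter in parental cells. Tnfrsf12a, the receptor of the cytokine TWEAK, had 494 in generated stem cells and 5858 in parental cells, an 11.9-fold difference between values that were both above the floor. The gene of TWEAK itself, Tnfsf12, differed less, with 436 in generated stem cells and 630 in parental cells (1.44-fold lower).

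Tnfrsf1b, the second TNF receptor, had 55.9 in generated stem cells and 726 in parental cells, at least 7.76-fold lower. The gene of its ligand, Tnf, was dim at 38.8 in generated stem cells and 55.9 in parental cells. Tnfrsf21, also known as death receptor 6, went the other way, with 1756 in generated stem cells and 641 in parental cells, 2.74-fold higher. It had the largest fold of the higher members with both values above the floor. Tnfrsf23, a mouse decoy receptor for TRAIL, had 1624 in generated stem cells and 2223 in parental cells (1.37-fold lower). Tnfrsf4, the OX40 gene, and Tnfrsf19, a receptor of developing epithelia, were 1.48-fold and 1.21-fold lower, and Tnfrsf10b, the TRAIL death receptor of the mouse, was 1.07-fold higher, while Tnfrsf9, Tnfrsf18 and Tnfrsf25 were dim. Among ligands, Tnfsf13b, which encodes the B cell survival factor BAFF, had 112 in generated stem cells and 182 in parental cells (1.63-fold lower). Tnfsf9, the 4-1BB ligand gene, and Tnfsf13, which encodes APRIL, had folds of 1.08 and 1.10, and Tnfsf10 and Tnfsf15 were dim.

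Genes named for their induction were split. Tnfaip3 encodes A20, a ubiquitin-editing enzyme that restrains NF-kappa B. It had 65.2 in generated stem cells and 386 in parental cells, at least 4.13-fold lower. Tnfaip8l1, a relative of a regulator of cell death, was at 60.3 in generated stem cells and 133 in parental cells, with a bound of 1.42-fold. Tnfaip8l3, a lipid transfer protein gene of the same family, was 2.56-fold higher, with 1791 in generated stem cells and 700 in parental cells. Il4i1, a secreted amino acid oxidase, was 2.09-fold higher, with 277 in generated stem cells and 133 in parental cells. Tnfaip1, which encodes an adaptor of a ubiquitin ligase, had 4817 in generated stem cells and 9476 in parental cells and fell just short of the count at 1.97-fold.

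Most interleukin ligand genes differed little. Of 22 measured genes, Osm included, 15 were above the floor. Of these 15, 13 differed by less than 2-fold, where 55.3% of all genes above the floor did. Il1b, the central inflammatory cytokine of the IL-1 family, was 2.18-fold higher, with 411 in generated stem cells and 188 in parental cells. Its relative Il1a was dim at 89.8 in generated stem cells and 48.9 in parental cells. Il17b, a member of the IL-17 family, was at 200.2 in generated stem cells and 60.4 in parental cells, under the floor, at least 2.14-fold higher. None was 2-fold lower, where 22.6% of all genes were. Close to the limit stood Il12a, a subunit of IL-12 and IL-35, with 381 in generated stem cells and 199 in parental cells (1.91-fold higher). Oncostatin M, encoded by Osm, is a relative of LIF, and it had 705 in generated stem cells and 382 in parental cells (1.84-fold higher). Il11, another cytokine of the IL-6 family, had 349 in generated stem cells and 469 in parental cells (1.35-fold lower).

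The other interleukin ligands were not counted in either direction. Il18, an IL-1 family cytokine, had 186 in generated stem cells and 293.5 in parental cells (1.58-fold lower), while Il15, which sustains natural killer cells, had 219 in generated stem cells and 234 in parental cells. Il7, a lymphocyte growth factor, was at 83.3 in generated stem cells, under the floor, and 134 in parental cells, with a bound of 1.43-fold. Il17c, a cytokine of epithelia, was at 99.0 in generated stem cells and 68.8 in parental cells, with a bound of 1.06-fold, and 1 of its 2 probes was under the floor in both samples. Il27 was at 149.7 in generated stem cells and 149 in parental cells. Il12b, Il23a and Il17f had log2 differences of -0.47, 0.24 and 0.44. Il3 and Il5, under the floor in parental cells, had bounds of 1.12-fold and 1.26-fold higher. Dim were Il10, Il19, Il20, Il34, Il1a, Il1f8 and Il1f10.

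Interleukin receptors and related chains held 4 lower genes among 17 above the floor (23.5%, near the 22.6% of all genes) and no higher one, of 19 measured. Il13ra1 and Il4ra encode the chains that together form the type II receptor for IL-4 and IL-13. Il13ra1 was at 74.4 in generated stem cells and 741 in parental cells, at least 7.93-fold lower, and Il4ra at 163 in generated stem cells and 509.8 in parental cells, 3.12-fold lower. Both chains of this receptor were thus brighter in parental cells. Il1rap, the shared accessory chain of IL-1, IL-33 and IL-36 receptors, had 82.8 in generated stem cells and 221 in parental cells, at least 2.36-fold lower. Il17rc, a subunit of the receptor for IL-17A and IL-17F, had 261 in generated stem cells and 529 in parental cells (2.03-fold lower), the lower member nearest to the limit. Its partner subunit Il17ra was at 232 in generated stem cells and 226 in parental cells. Il17re, the subunit for IL-17C, had 154 in generated stem cells and 80.6 in parental cells, at least 1.64-fold higher, and 1 of its 2 probes was under the floor in both samples.

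Bright receptor genes with little difference included Crlf2, which encodes the receptor of TSLP, with 4445 in generated stem cells and 2886 in parental cells (1.54-fold higher). Il23r, a chain of the IL-23 receptor, had 1341 in generated stem cells and 725 in parental cells (1.85-fold higher), and Il20rb, a chain shared by receptors of the IL-20 family, had 832 in generated stem cells and 1338 in parental cells (1.61-fold lower). Il6ra, which binds IL-6 before the signalling chain does, was at 120 in generated stem cells and 166 in parental cells (1.38-fold lower). Il31ra was 1.90-fold lower, with 94.7 in generated stem cells and 180 in parental cells. The decoys Il1r2, which captures IL-1, and Il18bp, which captures IL-18, were 1.52-fold and 1.69-fold higher. Il2rb and Il3ra had log2 differences of -0.07 and 0.31. Il15ra, under the floor in generated stem cells, had a bound of 1.14-fold lower, Il18r1, under it in parental cells, one of 1.35-fold higher, and Il2ra and Il1rl2 were dim.

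Below the receptors, genes of NF-kappa B signalling were often lower. Of 41 listed genes of NF-kappa B, TNF and IL-1 receptor signalling 27 were measured and 26 lay above the floor. Of these 14 were lower (53.8%, where 22.6% of all genes were) and 2 higher (7.69%, where 22.1% were), with a median log2 difference of -1.02. Tab2, an adaptor of the TAK1 kinase, had 108 in generated stem cells and 1289.8 in parental cells. Casp8, the caspase of death receptors, had 68 in generated stem cells, under the floor, and 784 in parental cells, at least 8.39-fold lower. The subunit genes Rela, with 1916 in generated stem cells and 4442 in parental cells, and Nfkb2, with 686 in generated stem cells and 1761 in parental cells, were among the lower ones. Each had 1 probe, and their folds of 2.32 and 2.57 lie near the probe error of 2.07-fold. At 2 SD of that error 5 of the 26 genes were lower, where 9.63% of all genes were. Higher were Nfkbia, which encodes the inhibitor that holds NF-kappa B in the cytoplasm, with 2023 in generated stem cells and 863 in parental cells, and Birc2, a ubiquitin ligase of TNF receptor complexes, with 3841 in generated stem cells and 1351.5 in parental cells.

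The JAK, STAT and SOCS genes went both ways, with 8 lower (38.1%, against 22.6% of all genes) and 5 higher (23.8%, against 22.1%) among 21 measured of 25 listed and a median of -0.06. Jak2, the kinase of many cytokine receptors, had 47 in generated stem cells, under the floor, and 1286 in parental cells, at least 13.8-fold lower. Stat3, the factor downstream of LIF and IL-6, had 44.1 in generated stem cells, under the floor, and 770.1 in parental cells, at least 8.24-fold lower. It was read by 1 probe. Jak1 was 3.02-fold lower but bright in both samples, with 5012 in generated stem cells and 15150 in parental cells. Socs3 differed by 1.04-fold, with 2670 in generated stem cells and 2779 in parental cells. Jak3, the kinase of the common gamma chain, had 287 in generated stem cells and 60.4 in parental cells, under the floor, at least 3.06-fold higher. The phosphatase gene Ptpn6 had 662 in generated stem cells and 199 in parental cells. Of 30 listed genes of chemokine receptor signalling 19 were measured, 4 lower (21.1%, near the 22.6% of all genes) and 3 higher (15.8%, against 22.1%), with a median of -0.15. There the GTPase gene Rac1 had 4484 in generated stem cells and 18854 in parental cells and the G protein gene Gnai2 had 2105 in generated stem cells and 7222 in parental cells. Higher was Arrb2, which encodes beta-arrestin 2, with 931 in generated stem cells and 196 in parental cells. Grk3, a receptor kinase gene, had 203 in generated stem cells and 40.6 in parental cells, under the floor, at least 2.16-fold higher.

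**Figure D4:**
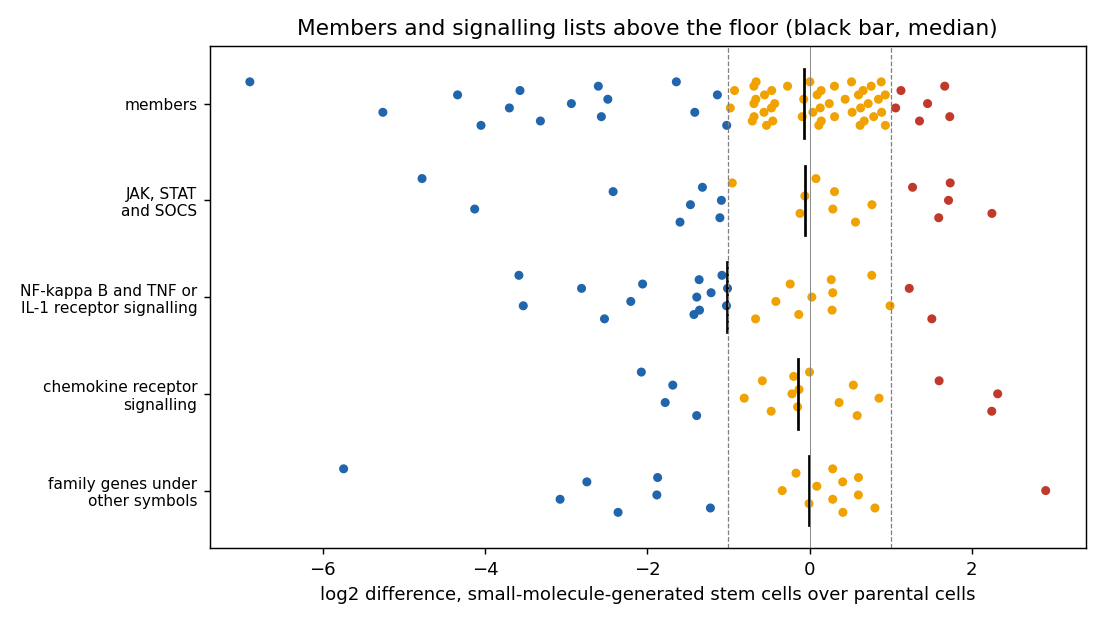
Log2 difference of generated stem cells over parental cells (horizontal axis) for the members and for 4 lists of related genes, each point 1 gene above the floor in at least 1 sample, coloured red at 2-fold or more higher and blue at 2-fold or more lower, with black bars at the medians. The NF-kappa B list has its median at -1.02, and the other medians lie between -0.15 and -0.01.

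Promoters were read for 68 of the 88 members, from the RefSeq table of the build GRCm38.p6, as windows of 300 bases (250 before the start of the gene and 50 after), 79 windows in all. Motifs were searched on both strands, and a match was counted also where it overlapped another. A kappa B-like motif (GGG and TTCC with 3 bases of any kind between them), the kind of sequence NF-kappa B is known to bind, was found in 7 of 15 windows (46.7%) of the lower members, which are 6 of 14 genes, namely Csf1, Cxcl10, Il17rc, Il4ra, Tnfaip3 and Tnfaip8l1. It was in 0 of 4 windows of higher members, 1 of 37 of those under 2-fold and 3 of 23 of dim ones. Of all 32851 windows 5.56% held it, and of the 2297 windows of all genes lower on the array 6.23% did. A GAS-like motif (TTCNNNGAA), of the kind STAT factors bind, was in 2 of 15 windows of lower members and in 8.30% of all windows. An AP-1-like motif (TGANTCA) was in 2 of 15 and in 7.81% of all, and TATAAA in 3 of 15 and in 13.6%. These are matches of letters in a small number of windows and were not tested. Of the 6 lower genes with a kappa B-like match, Cxcl10 and Tnfaip8l1 had bounds of only 1.38-fold and 1.42-fold, and Il17rc was 2.03-fold lower. Each of these calls was lost in at least 1 alternative processing. Tnfaip3 had the kappa B-like motif in both of its windows, so the 7 windows are not separate genes.

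The upstream 250 bases of 4 lower members are shown, 3 with kappa B-like matches and Cxcl12, which had the largest difference and none of the 4 motifs. Capitals mark matches of the 4 motifs. In Csf1 (chr3:107760470-107760719, minus strand) the kappa B-like match begins 154 bases before the start. In Cxcl10 (chr5:92348890-92349139, minus strand) a pair of them begins 159 and 104 bases before it, with an AP-1-like match at 74. In the more upstream of the windows of Tnfaip3 (chr10:19015411-19015660, minus strand) a kappa B-like match lies at 12, an AP-1-like one at 136 and TATAAA at 225, and a second kappa B-like match lies after the start, outside the bases shown. Cxcl12 lies at chr6:117168285-117168534, plus strand.
Csf1: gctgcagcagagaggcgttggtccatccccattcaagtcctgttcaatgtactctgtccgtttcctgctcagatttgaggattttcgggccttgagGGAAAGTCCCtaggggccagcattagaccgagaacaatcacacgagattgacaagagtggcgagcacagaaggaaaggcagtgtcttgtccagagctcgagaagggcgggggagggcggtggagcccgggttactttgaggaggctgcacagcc
Cxcl10: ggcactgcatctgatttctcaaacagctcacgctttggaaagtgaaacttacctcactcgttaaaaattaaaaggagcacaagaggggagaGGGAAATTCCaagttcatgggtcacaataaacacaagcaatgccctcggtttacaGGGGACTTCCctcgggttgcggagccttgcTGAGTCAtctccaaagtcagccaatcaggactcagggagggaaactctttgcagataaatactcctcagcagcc
Tnfaip3: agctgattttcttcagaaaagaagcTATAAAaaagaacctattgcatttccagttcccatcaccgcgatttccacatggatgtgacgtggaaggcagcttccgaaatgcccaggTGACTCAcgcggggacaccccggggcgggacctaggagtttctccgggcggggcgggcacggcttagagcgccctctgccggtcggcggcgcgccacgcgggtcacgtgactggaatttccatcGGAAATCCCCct
Cxcl12: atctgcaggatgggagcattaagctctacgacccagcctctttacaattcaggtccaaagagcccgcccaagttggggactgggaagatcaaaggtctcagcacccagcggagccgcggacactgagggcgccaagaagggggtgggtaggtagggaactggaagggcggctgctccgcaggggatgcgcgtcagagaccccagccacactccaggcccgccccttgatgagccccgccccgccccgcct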

How the data were processed

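Total RNA was amplified, labelled with Cy5 and hybridised to a Phalanx mouse whole-genome OneArray, per the labels' protocols. The deposited values are linear probe intensities that the authors had normalised. The sources used here do not name the scanner, the background correction, the normalisation or any probe filter. Both columns had nearly the same median (305 in generated stem cells and 304 in parental cells), so a difference in total signal between the samples could not be seen.

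Symbols came from the platform annotation and were updated by Entrez identifier with a RefSeq table of GRCm38.p6, used for names and promoters only. Of 13989 probes 1609 had no symbol. Intensities were taken to log2 and averaged per gene with pandas 2.3.3 under Python 3.11.15. Members, roles, lists and motifs were chosen with earlier results of these data known. With 1 sample per group no test was made, and the precision is limited by the number of arrays. Named were all members at 2-fold or more, 16 genes fixed by name where measured, members near the limit or with discordant probes, and bright ones under 2-fold. The counting steps were run on simulated data with noise smaller than the probe error given above. That run therefore does not measure how reliable the calls of these genes are. Alternatives covered scaling, probe summary, an offset, floors, size rules, probes as the unit and symbols, and centring each class of probe identifiers was added after seeing the data, as were the alternatives for the signalling lists.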

Additional observations from a re-analysis of the deposited data

How the results depend on the processing

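No paired analysis was possible because each group had 1 sample and no result came from a test. The count of 15 lower members stayed between 11 and 16 under all alternatives run, but the number of members counted and the share of all genes changed. With the floor at the median 12 of 30 were lower (40%, where 25.6% of all genes were). Without a floor 16 of 88 were, where 19.7% of all genes were. At 2 SD of the probe error 11 of 65 were, where 9.63% of all genes were. The count of 6 higher members was 3 with an offset of 50 (19.2% of all genes) and 3 with the floor at the median (25.4% of all genes). It was 0 at 4-fold (7.52% of all genes) and at 2 SD of the probe error (6.80% of all genes), and between 4 and 6 otherwise. The median log2 difference of -0.07 was -0.60 with the floor at the median, which left 30 members (0.14 for all genes). Of the 12 lower members that this floor kept, 10 passed it in parental cells only, so which genes it keeps depends in part on the difference itself. The median was 0.02 without a floor. Lowess centring moved the median of all genes from 0.12 to -0.01 and that of the members to -0.10. Of the 21 members counted as higher or lower, 13 kept their call and direction under each of 10 alternatives, all of which kept the 2-fold rule. The others were Csf2rb, Cxcl10, Il17b, Il17rc, Il1b, Il1rap, Il4i1 and Tnfaip8l1, and none of them reversed. Of the 13, Il4ra, Tnfaip8l3 and Tnfrsf21 were under 4-fold, so they did not pass the 4-fold rule or that of 2 SD of the probe error. Csf2rb, Cxcl10 and Tnfaip8l1 came under 2-fold when their values under the floor were raised to it. At 4-fold, 10.3% of all genes above the floor were lower and 7.52% higher. There the NF-kappa B list had 6 lower and 0 higher of 26 genes, and the JAK and STAT list 3 lower and 1 higher of 21. The chemokine signalling list had 1 lower and 2 higher of 19, and the family list 4 lower and 1 higher of 19. At 2 SD of the probe error, 9.63% of all genes were lower and 6.80% higher. The NF-kappa B list then had 5 lower and 0 higher, and the JAK and STAT list 3 lower and 1 higher. The chemokine signalling list had 0 lower and 2 higher, and the family list 4 lower and 1 higher. The stricter size rules count fewer genes by construction.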

Other observations

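Cytokine and receptor genes with other kinds of symbol, which the naming rule leaves out, were measured as well. Of 50 such genes on a list 26 were measured and 19 lay above the floor, with 7 lower (36.8%, where 22.6% of all genes were), 1 higher (5.26%, where 22.1% were) and a median log2 difference of -0.01. Tgfb3, a TGF-beta ligand gene, had 64.4 in generated stem cells, under the floor, and 3447 in parental cells, at least 36.9-fold lower. Ifngr2, a chain of the interferon gamma receptor, had 633 in generated stem cells and 5332 in parental cells, and Ifnar1, a chain of the type I interferon receptor, had 275 in generated stem cells and 1012 in parental cells. Flt3l, a growth factor gene of blood progenitors, was at 61.8 in generated stem cells, under the floor, and 414 in parental cells, at least 4.43-fold lower. The higher gene was Kit, the stem cell factor receptor, with 737 in generated stem cells and 98 in parental cells, while the gene of its ligand, Kitl, was dim in both. Tslp, whose receptor chain is encoded by Crlf2, had 931 in generated stem cells and 533 in parental cells.

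The promoter windows of dim members held few CpG dinucleotides, with a median ratio of observed to expected CpG of 0.21 (23 windows), against 0.37 for all dim genes on the array (1583 windows). Lower members had a median of 0.64 (15 windows), against 0.71 for all lower genes (2297 windows). Members under 2-fold had 0.33 (37 windows), against 0.73 for all genes under 2-fold (5475 windows). These are descriptions of sequence and were not tested.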
